A study of Mus musculus with 6 samples.

Results

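Mitochondrial ribosomal protein genes were taken as all protein-coding genes of the GENCODE M21 annotation of the mouse genome (mm10) whose names start with *Mrpl* or *Mrps*. There were 78 of them among 21938 protein-coding genes, 49 named for the large and 29 for the small subunit. Their starts were compared with 1 merged set of 11106 ChIP-seq peaks of H3K56ac, histone H3 acetylated at lysine 56. The cells were V6.5 mouse embryonic stem cells on feeder cells. They were infected with lentivirus that carried a scrambled shRNA in the Scramble group and one targeting *Sirt6*, the gene for a nuclear deacetylase, in the *Sirt6* KD group. Each group had 2 H3K56ac libraries and 1 input library. The merged set names no library, group or signal strength, so Scramble and *Sirt6* KD could not be compared, the set has no replicates, and the depth behind a peak is unknown. A gene counted as having a promoter peak when the midpoint of a peak lay within 1 kb of any annotated transcription start site (TSS) of the gene. Intervals given after shares are Wilson 95% intervals, which cover counting error only, and no difference between gene groups was tested. Of 10 embryonic stem cell markers 5, such as *Pou5f1* and *Nanog*, had a promoter peak by midpoint, and all 10 had some peak base in the same distance. Of 10 fibroblast markers of the feeder layer, such as *Col1a1*, 0 had either.

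Mitochondria translate the few proteins encoded by their own DNA, all of them parts of the oxidative phosphorylation machinery, on a ribosome of bacterial descent. The RNA of this ribosome is mitochondrial, whereas every one of its proteins is encoded in the nucleus, made in the cytosol and imported. Many of the proteins have a bacterial counterpart, and the others were added during the evolution of mitochondria. Acetylation of lysine 56 lies at the site where DNA enters and leaves the nucleosome, is found on newly assembled histones and at active promoters, and is removed by SIRT6 among other enzymes.

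Several of these genes start next to another gene that is read in the opposite direction, and the DNA between both starts is short enough to be shown whole. The sequences come from the reference genome (GRCm38, the assembly of mm10) and are read 5′ to 3′ toward the mitochondrial ribosomal protein gene, so that the last letter directly precedes its TSS. Capitals mark the letters of an ETS motif (CCGGAAG or its reverse complement CTTCCGG), the core of an NRF1 site (CGCATGCG) or a ZBTB33 site (CTCGCGAG). ETS factors and NRF1 are activators that occur at many genes for mitochondrial proteins, and ZBTB33 (Kaiso) binds such CG-containing letters. The first 3 spacers lay inside a peak that covered both starts and show the closest pair of members and the ZBTB33 letters.
*Mrpl46*-*Mrps11*, minus strand, chr7:78783090-78783118: gcccctcgccggcccgcgttgcctcatgg
*Mrpl57*-*Ska3*, plus strand, chr14:57826186-57826233: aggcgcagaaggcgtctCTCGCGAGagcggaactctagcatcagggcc
*Mrpl40*-*Hira*, minus strand, chr16:18876863-18877036: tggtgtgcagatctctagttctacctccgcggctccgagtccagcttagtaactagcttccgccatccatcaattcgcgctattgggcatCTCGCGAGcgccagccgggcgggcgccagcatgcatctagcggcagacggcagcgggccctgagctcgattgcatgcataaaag

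The next 4 sequences hold the ETS or NRF1 letters at genes with a promoter peak. *Mrpl22* has no divergent partner, and the 120 bases before its TSS hold both.
*Mrpl43*-*Twnk*, minus strand, chr19:45006443-45006557: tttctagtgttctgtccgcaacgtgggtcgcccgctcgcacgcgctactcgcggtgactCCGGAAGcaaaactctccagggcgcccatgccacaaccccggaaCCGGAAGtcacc
*Mrps27*-*Ptcd2*, plus strand, chr13:99344706-99344785: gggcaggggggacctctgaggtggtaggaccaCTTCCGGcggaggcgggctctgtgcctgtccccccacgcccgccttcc
*Mrpl10*-*Lrrc46*, plus strand, chr11:97041408-97041559: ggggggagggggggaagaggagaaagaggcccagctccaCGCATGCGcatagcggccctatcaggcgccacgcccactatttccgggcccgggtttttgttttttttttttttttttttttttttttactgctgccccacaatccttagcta
*Mrpl22*, plus strand, chr11:58171541-58171660: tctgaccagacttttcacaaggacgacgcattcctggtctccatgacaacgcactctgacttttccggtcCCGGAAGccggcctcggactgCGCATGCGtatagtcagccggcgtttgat

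The last 4 belong to genes without a promoter peak. ETS letters occur in 2 of them.
*Mrpl49*-*Fau*, minus strand, chr19:6057786-6057843: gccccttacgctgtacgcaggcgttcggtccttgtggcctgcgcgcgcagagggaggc
*Mrps12*-*Sars2*, minus strand, chr7:28741821-28741991: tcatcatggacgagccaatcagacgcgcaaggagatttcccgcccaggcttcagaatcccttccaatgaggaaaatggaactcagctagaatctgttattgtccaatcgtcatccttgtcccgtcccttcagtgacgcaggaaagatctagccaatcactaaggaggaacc
*Mrps18b*-*Ppp1r10*, minus strand, chr17:35916390-35916433: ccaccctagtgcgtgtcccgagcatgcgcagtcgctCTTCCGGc
*Mrps35*, plus strand, chr6:147042644-147042763: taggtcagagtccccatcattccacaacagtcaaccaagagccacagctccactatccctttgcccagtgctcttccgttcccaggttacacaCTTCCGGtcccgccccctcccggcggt

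A promoter peak was present at 69 of the 78 genes (88.5%, 79.5 to 93.8%), against 33.9% of all 21938 protein-coding genes. The peak lay at 45 of 49 genes named for the large subunit (91.8%, 80.8 to 96.8%) and at 24 of 29 named for the small subunit (82.8%, 65.5 to 92.4%), so the intervals of both subunits overlap. Grouped by number, 40 of 44 genes whose protein has a bacterial counterpart (*Mrpl* up to 36, *Mrps* up to 21) and 29 of 34 others had one, which is 90.9% and 85.3%. This grouping was made after the values were known. Counting any peak base within 1 kb of a TSS added 1 gene, *Mrps18b*, giving 70 of 78 (89.7%), against 35.7% of all genes.

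Most of these promoters were rich in CpG dinucleotides, a class that carried peaks more often throughout the genome. The ratio of observed to expected CpG in the 500 bp on either side of the outermost 5′ end was over 0.6 for 69 of the 78 genes (88.5%), against 45.9% of all genes. Among these 69, a promoter peak was present at 60 (87.0%, 77.0 to 93.0%), compared with 57.6% of 10078 CpG-rich protein-coding genes. The 9 genes at or below 0.6 were *Mrpl1*, *Mrpl20*, *Mrpl23*, *Mrpl33*, *Mrpl35*, *Mrpl46*, *Mrps9*, *Mrps18a* and *Mrps24*, and all 9 had a promoter peak, against 13.7% of 11860 protein-coding genes at or below the limit. Their ratio depended on which start was used. For *Mrpl20*, *Mrpl33*, *Mrpl46* and *Mrps24* it was over 0.6 at the principal TSS, the outermost start of the transcripts that the annotation ranks as principal. For *Mrpl35* the ratio was 0.0567 at the outermost end and 0.550 at the principal TSS.

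The 69 genes with a peak lay on 17 autosomes. All 11 members on chromosome 11 had a promoter peak, as did 7 of 8 on chromosome 17 and 5 of 7 on chromosome 6. The share over the whole family was 88.5%. No share over all genes was taken by chromosome, so these small counts describe the family alone. No member is annotated on chromosomes 12, 18, X or Y.

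The share with a promoter peak was similar in other gene groups, taken by gene name without a check that these cells use each gene. It was 81.7% (67 of 82) for cytosolic ribosomal protein genes, 82.6% (71 of 86) for nuclear genes of the respiratory chain and ATP synthase and 87.2% (34 of 39) for proteasome subunit genes, and the Wilson interval of each overlapped that of the mitochondrial ribosomal protein genes. Among CpG-rich promoters alone, the share was 87.0% (60 of 69) for mitochondrial and 83.8% (62 of 74) for cytosolic ribosomal protein genes. It was higher for respiratory chain and ATP synthase genes (93.9%, 62 of 66) and proteasome genes (93.3%, 28 of 30). Peak width separated the groups more than presence did. The median promoter peak was 1295 bp wide at mitochondrial ribosomal protein genes (quartiles 920 and 1846 bp) and 3013 bp at cytosolic ribosomal protein genes (quartiles 2397 and 3556 bp). It was 1729 bp at respiratory chain and ATP synthase genes, 1393 bp at proteasome genes and 1274 bp over all 7429 protein-coding genes with a promoter peak. A width of 3 kb or more was found for 2 of 69 mitochondrial ribosomal protein genes (0.799 to 9.97%) and for 34 of 67 cytosolic ones (39.1 to 62.4%), against 7.61% of all genes with a promoter peak. These are widths of merged regions and not of the peaks of 1 library.

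**Figure D1:**
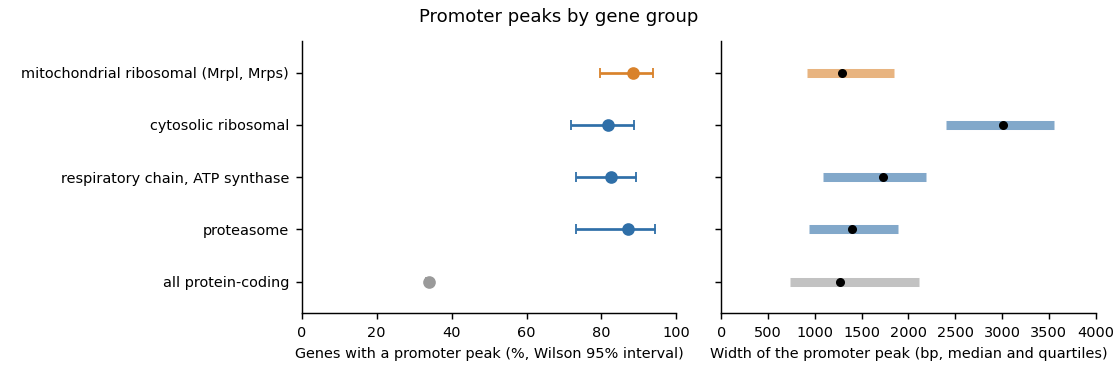
Promoter peaks of 5 gene groups, with the share of genes that had one on the left (points with Wilson 95% intervals, in percent) and the width of the nearest promoter peak on the right (black point, median; bar, quartiles; in bp). The mitochondrial ribosomal protein genes lie at 88.5% and a median of 1295 bp, near the other groups taken by name in share and below the 3013 bp of the cytosolic ribosomal protein genes in width.

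Within the family, widths ran from 402 to 3603 bp, taking for each gene the promoter peak nearest to any of its TSS. A further peak of *Mrpl48*, at its principal TSS, was 317 bp wide. Peaks under 1 kb were found at 25 genes, peaks of 1 to 2 kb at 29 and peaks of 2 kb or more at 15. The widest were those of *Mrpl18* (3603 bp), *Mrps34* (3066 bp), *Mrpl54* (2932 bp), *Mrps7* (2792 bp) and *Mrpl51* (2711 bp), and each of these 5 genes has a divergent partner. The narrowest were those of *Mrps6* (402 bp), *Mrpl19* (424 bp), *Mrpl48* (551 bp), *Mrpl3* (590 bp) and *Mrpl23* (616 bp), and of these only *Mrpl48* has a divergent partner. *Mrpl18* encodes the relative of a bacterial protein that binds 5S ribosomal RNA, and its peak (chr17:12914939-12918541) reached over the start of *Tcp1*, a subunit of the cytosolic chaperonin. *Mrps34* encodes a small subunit protein without a bacterial counterpart. Its peak (chr17:24894273-24897338) was also a promoter peak of *Eme2* and *Nme3*, and its midpoint lay both in an exon of *Mrps34* and in an exon of *Mapk8ip3*.

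A divergent partner, meaning a protein-coding gene on the opposite strand whose TSS lay upstream within 1 kb, was annotated for 29 of the 78 genes (37.2%, 27.3 to 48.3%), against 11.0% of all protein-coding genes. The share was 34.9% for respiratory chain and ATP synthase genes (30 of 86) and 19.5% for cytosolic ribosomal protein genes (16 of 82). The starts of both genes lay close together. The gap between the nearest TSS ranged from 26 bp (*Mrpl54* and *Apba3*) to 935 bp (*Mrpl41* and *Pnpla7*) with a median of 59 bp, compared with 106 bp over all 2410 genes with a partner, and it was at most 100 bp for 21 of the 29. *Mrpl9*, *Mrpl44*, *Mrpl47* and *Mrps30* count as without a partner, although an opposite-strand protein-coding gene starts inside each, within 1 kb of the principal TSS. The peaks of *Mrpl9* and *Mrpl44* were also promoter peaks of these genes, *Oaz3* and *Wdfy1*.

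Presence of a peak hardly depended on the partner within the family. A promoter peak was found at 26 of 29 genes with a divergent partner (89.7%, 73.6 to 96.4%) and at 43 of 49 without one (87.8%, 75.8 to 94.3%). Over all protein-coding genes the shares were 73.0% and 29.0%. Restricted to CpG-rich promoters, they were 89.3% (25 of 28) and 85.4% (35 of 41) in the family, compared with 79.3% and 52.5% over all such genes. The members without a partner therefore lay farther above their background, by share, than those with a partner.

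Width and position, in contrast, went with the partner. Promoter peaks were 1829 bp wide at the median where a partner was present (quartiles 1224 and 2326 bp) and 1137 bp where none was (quartiles 837 and 1593 bp). Over all genes the medians were 1883 and 1109 bp, so the family followed the general pattern. Of the 15 peaks of 2 kb or more, 10 belonged to genes with a partner and 5 to genes without, namely *Mrpl12*, *Mrpl15*, *Mrpl45*, *Mrpl52* and *Mrps16*. *Mrpl12* encodes the protein of the ribosomal stalk that recruits translation factors.

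Position was measured from the principal TSS in the direction of the gene, so that negative values lie upstream, and all 69 genes had a peak midpoint within 1 kb of that TSS. The peak nearest to that TSS was used. At *Mrpl14*, *Mrpl33*, *Mrpl36* and *Mrpl48* it was not the peak used for width. For the 43 genes without a partner the midpoint lay 395 bp downstream at the median (quartiles 242 and 518 bp), and it was downstream of the TSS for 39 of them (90.7%, 78.4 to 96.3%), against 74.5% of all such genes. The share was 92.9% for respiratory chain and ATP synthase genes without a partner, 96.2% for proteasome genes and 97.6% for cytosolic ribosomal protein genes, so it was not higher in the family than in these groups. It also depended on the choice of TSS. From the nearest of all annotated TSS, 30 of the 43 midpoints lay downstream (69.8%, 54.9 to 81.4%), near the 67.2% of all such genes. Upstream of the principal TSS were the midpoints of *Mrps26* (-533.5 bp), *Mrps28* (-151.5 bp), *Mrpl52* (-135.5 bp) and *Mrps21* (-50.5 bp). For the 26 genes with a partner the median was 4.5 bp (quartiles -187.6 and 236.8 bp), and 13 midpoints lay downstream (50.0%), against 46.7% of all such genes. By these medians, the peaks extended about equally far to both sides of the start at divergent genes and mostly into the gene at the others. Single divergent genes leaned to either side, with midpoints from -646 bp (*Mrpl36*) to 689.5 bp (*Mrps34*). Medians over all genes were 318 bp without and -28.8 bp with a partner.

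The members with and without a partner differed on the upstream side. Without a partner, peaks reached 110 bp upstream of the principal TSS at the median (quartiles -19 and 557 bp, where a negative value means that the peak began inside the gene) and 911 bp downstream. With a partner they reached 914 bp upstream and 901 bp downstream. Over all genes the medians were 469.5 and 984 bp without and 1008 and 981 bp with a partner. The members without a partner thus had the shortest upstream reach of these 4 groups, while the downstream reach was within 100 bp in all of them. A short median upstream reach without a partner was not particular to the family. It was 186 bp at respiratory chain and ATP synthase genes and 198.5 bp at proteasome genes, but 815.5 bp at cytosolic ribosomal protein genes. Measured from the nearest TSS, the upstream reach without a partner was 324 bp in the family and 553 bp over all genes, so its size depended on the TSS used. The upstream edge lay within 150 bp of the principal TSS, on either side, for 20 of the 43 genes without a partner (46.5%, 32.5 to 61.1%), against 20.7% of all such genes, 35.7% of respiratory chain and ATP synthase genes without a partner and 34.6% of such proteasome genes. This distance was chosen after the values were seen. Such an edge at the start was present at *Mrpl1*, *Mrpl4*, *Mrpl9*, *Mrpl22*, *Mrpl24*, *Mrpl38*, *Mrps9*, *Mrps14* and *Mrps25*, among others. The peak began downstream of the principal TSS for 14 of the 43 genes (32.6%), near the 30.5% of all such genes. The upstream reach was lowest at *Mrpl23* (-627 bp) and *Mrps6* (-587 bp), whose peaks lay wholly inside the gene. *Mrps26* showed the opposite arrangement, since its peak ended before the start (downstream reach -103 bp) and had its midpoint in no annotated protein-coding gene.

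**Figure D2:**
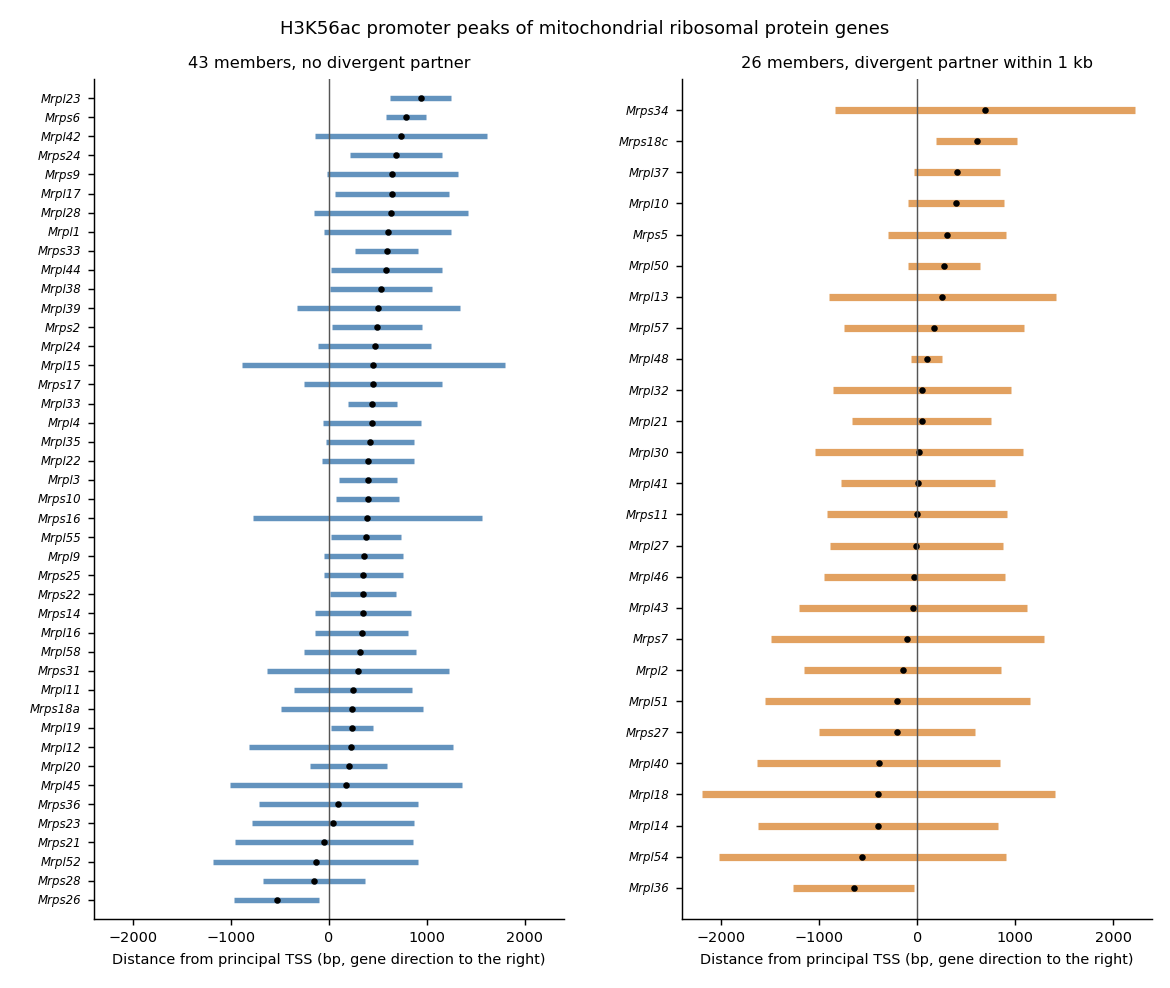
Promoter peaks of the 69 mitochondrial ribosomal protein genes that had one, drawn as bars along the distance from the principal TSS (bp, gene direction to the right), with the peak midpoint as a black point. The left panel holds 43 genes without a divergent partner, sorted by midpoint, of which 39 have the midpoint downstream of the TSS, and the right panel holds 26 genes with a partner, of which 13 do.

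The same peaks were also described by scoring each position around the principal TSS for whether it fell inside a peak. This restates the asymmetry above and is not a separate observation. Genes without a promoter peak are included, so the level of each share also reflects how many genes had one. Over the 49 genes without a partner, 22.4% were covered 500 bp upstream, 57.1% at the TSS itself and 77.6% at 500 bp downstream. Over the 29 genes with a partner, coverage was 72.4%, 86.2% and 86.2% at these positions. The background of all genes without a partner was covered to 13.1%, 15.7% and 21.4%, and that of all genes with a partner to 54.8%, 54.2% and 56.1%. In all, the principal TSS of 53 of the 78 genes lay inside a peak (67.9%, 57.0 to 77.2%), against 19.9% of all protein-coding genes.

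**Figure D3:**
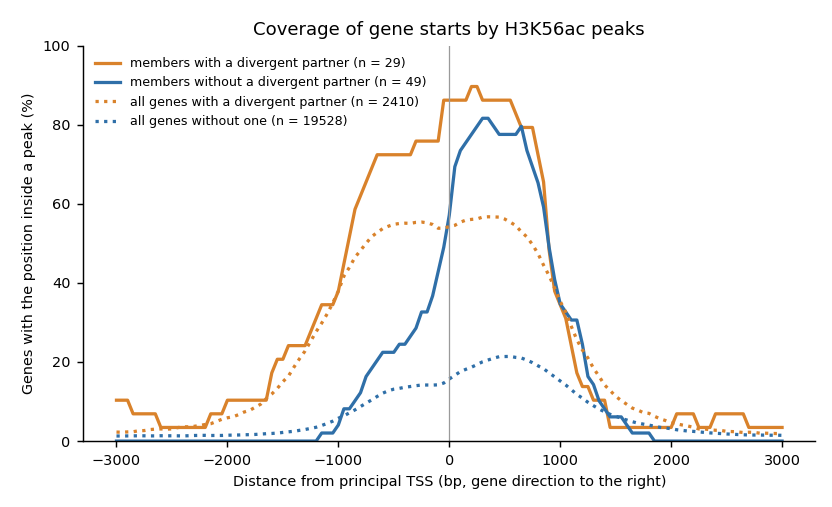
Share of genes (%) for which a position at the given distance from the principal TSS (bp, gene direction to the right, in steps of 50 bp) lay inside a peak. Solid lines are mitochondrial ribosomal protein genes with (n = 29) and without (n = 49) a divergent partner, and dotted lines are all protein-coding genes of the same kinds. Coverage without a partner goes from 22.4% at 500 bp upstream to 77.6% at 500 bp downstream, and with a partner from 72.4% to 86.2%.

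When the nearest of all annotated TSS was used in place of the principal TSS, distances were shorter, since a gene has up to 11 annotated starts. The median distance was then 240 bp, with 23 genes within 100 bp and 63 within 500 bp. Nearest to a start were the midpoints of *Mrps11* (1.5 bp), *Mrps23* (6 bp), *Mrpl39* (7 bp), *Mrpl27* (8.5 bp) and *Mrpl41* (10.5 bp). Farthest among the genes with a promoter peak were *Mrpl42* (684.5 bp), *Mrps34* (670.5 bp), *Mrps24* (639.5 bp), *Mrps9* (596.5 bp) and *Mrpl54* (557.5 bp). *Mrpl42* was therefore the last gene inside the limit of 1 kb, and *Mrps18b*, at 1297.5 bp, the first outside it. By gene structure, the midpoint fell in an exon of the member for 28 genes, in an intron for 27, in another gene only for 8 and in no protein-coding gene for 6. No share over all genes is given for this split, so these counts describe the family alone.

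Of the 29 genes with a divergent partner, 25 (86.2%, 69.4 to 94.5%) had a promoter peak that was also a promoter peak of the partner, against 68.3% of all genes with a partner. A promoter peak at both genes, shared or not, was found for the same 25 and for 69.1% of all genes with a partner. Sharing was thus nearly given once both genes had a peak. Most gaps were short beside the 1 kb limit, and neighbouring peaks in the merged set are at least 1000 bp apart. These were 24 separate peaks, since 1 belonged to 2 members. *Mrpl46* and *Mrps11*, a large and a small subunit gene, start 30 bp apart, and a single peak of 1846 bp (chr7:78782195-78784040) extended 936 bp and 909 bp from the middle of the 29-base spacer printed above. Its midpoint lay between both starts. This was the only promoter peak found at a pair of members.

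The shared peaks lay on either side with similar frequency. Counted per member, 13 of the 25 midpoints lay on the member's side of the middle and 12 on the partner's side. The midpoint was between both TSS in 4 cases, and the peak covered both TSS in 20. Distances of the midpoint from the middle are given as negative on the partner's side. Peaks that leaned most toward the partner were those of *Mrpl36* with *Ndufs6*, a complex I subunit (-620.5 bp), *Mrpl54* with *Apba3* (-544.5 bp), *Mrpl18* with *Tcp1* (-376.5 bp), *Mrpl14* with *Tmem63b* (-372 bp) and *Mrpl40* with *Hira* (-304 bp). *Hira* encodes a chaperone that deposits the histone variant H3.3. Peaks that leaned most toward the member were those of *Mrps34* with *Eme2* (704 bp), *Mrps18c* with *Helq*, a DNA helicase (620 bp), *Mrpl41* with *Pnpla7* (478 bp), *Mrpl10* with *Lrrc46* (470 bp) and *Mrpl37* with *Cyb5rl* (463.5 bp).

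In the other 5 cases the peak did not cover both TSS. At *Mrpl10*, *Mrpl37* and *Mrpl41* it covered that of the member, and at *Mrpl36* that of *Ndufs6*, ending just before the *Mrpl36* start (downstream reach -29 bp). The *Mrps18c* peak (chr5:100798819-100799646) began inside the gene (upstream reach -192 bp) and covered neither. *Mrpl36* had a separate peak of 1257 bp (chr13:73330885-73332141) at a start farther inside the gene. The remaining shared peaks joined members to genes of varied function. Partners with a role in mitochondria or protein turnover were *Twnk* (the helicase of mitochondrial DNA replication, with *Mrpl43*), *Ptcd2* (a mitochondrial RNA-binding protein, with *Mrps27*) and *Psma2* (a proteasome subunit, with *Mrpl32*). Others were *Ncapd2* (a condensin subunit, with *Mrpl51*), *Ska3* (a kinetochore protein, with *Mrpl57*), *Eme1* (a nuclease partner, with *Mrpl27*), *Ighmbp2* (a helicase, with *Mrpl21*), *Mtbp* (with *Mrpl13*), *Mitd1* (with *Mrpl30*), *Klc4* (a kinesin light chain, with *Mrpl2*), *Gga3* (a Golgi adaptor, with *Mrps7*) and the zinc finger genes *Zfp189* and *Zfp661* (with *Mrpl50* and *Mrps5*).

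**Figure D4:**
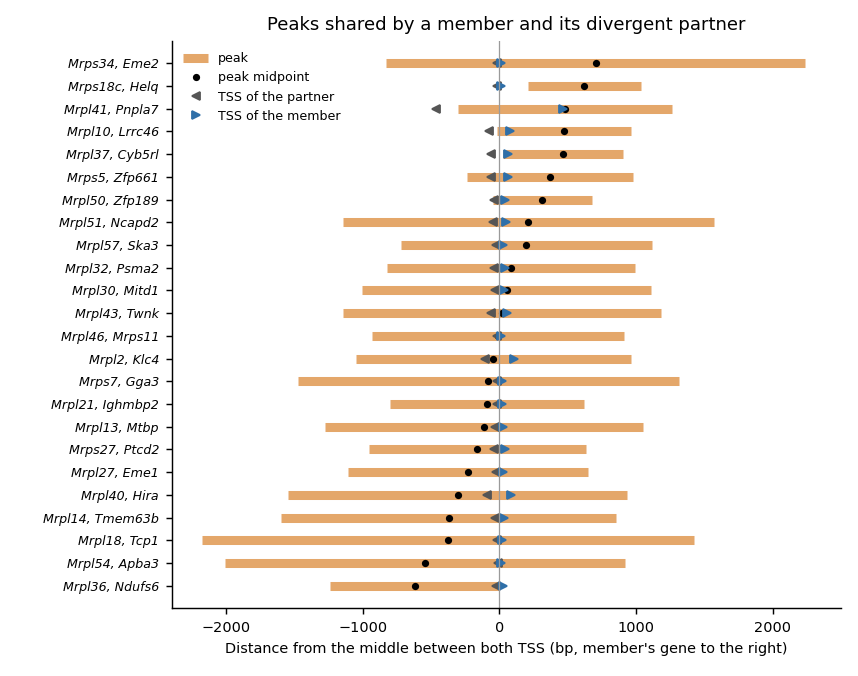
The 24 promoter peaks shared by a mitochondrial ribosomal protein gene and its divergent partner, drawn along the distance from the middle between both TSS (bp, with the member's gene to the right and *Mrpl46* standing for its pair with *Mrps11*). Bars are peaks, black points their midpoints, and arrowheads the TSS of the partner and of the member. Midpoints run from -620.5 bp on the partner's side (*Mrpl36*) to 704 bp on the member's side (*Mrps34*).

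The other 4 divergent pairs did not share a promoter peak. Neither gene had one at *Mrpl49* with *Fau*, which encodes a precursor of the cytosolic ribosomal protein S30, and at *Mrps12* with *Sars2*, the mitochondrial seryl-tRNA synthetase. The *Mrpl49* and *Fau* spacer of 58 bases and the *Mrps12* and *Sars2* spacer of 171 bases hold none of the ETS, NRF1 or ZBTB33 letters, although ETS letters begin 1 base after the *Mrps12* start. At *Mrps18b* with *Ppp1r10*, a regulatory subunit of protein phosphatase 1, the partner alone had a promoter peak. This peak of 4796 bp (chr17:35915289-35920084) was wide enough to cover the *Mrps18b* start, but its midpoint lay 1297.5 bp upstream of it. *Mrpl48* had promoter peaks where its partner *Rab6a* had none. They numbered 3, of 317, 551 and 732 bp, each at a different annotated start, and the narrowest covered the principal TSS. The peak of 732 bp (chr7:100608369-100609100) began within 1 kb of the *Rab6a* start at chr7:100607690, but its midpoint lay beyond that limit.

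The 9 genes without a promoter peak were *Mrpl34*, *Mrpl47*, *Mrpl49*, *Mrpl53*, *Mrps12*, *Mrps15*, *Mrps18b*, *Mrps30* and *Mrps35*. All 9 had a CpG-rich promoter, with ratios from 0.637 (*Mrps15*) to 1.055 (*Mrps30*), the highest of the family. For 7 of them no peak had a base within 3 kb of a TSS. The nearest midpoints lay 121092 bp away for *Mrps30*, 30645 bp for *Mrps35*, 24167.5 bp for *Mrps12*, 23294.5 bp for *Mrpl34*, 23116.5 bp for *Mrpl47*, 11033.5 bp for *Mrps15* and 5650.5 bp for *Mrpl53*. For *Mrpl49* a peak of 2197 bp had its midpoint 3969 bp upstream, in an exon of *Znhit2*. For *Mrps18b* a second peak, of 504 bp, lay 2750.5 bp downstream of its nearest start. *Mrps12* encodes a protein of the decoding centre of the ribosome. The absence of a peak says only that none was in the merged set, since the depth at these starts is unknown.

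The paralogs *Mrps18a*, *Mrps18b* and *Mrps18c* each had a different combination of peak and partner. *Mrps18a* had a peak of 1448 bp with its midpoint 239.5 bp downstream of the principal TSS and no divergent partner. *Mrps18c* shared a peak of 828 bp with *Helq*, with its midpoint 605.5 bp downstream of its principal TSS, and *Mrps18b*, which has a partner too, had none by midpoint. Although named for the small subunit, the products of *Mrps18a* and *Mrps30* reside in the large subunit of the mammalian mitochondrial ribosome. *Mrpl58* (a peak of 1148 bp) encodes a release factor relative that frees stalled ribosomes, and *Mrps36* (1619 bp) encodes a protein now assigned to the 2-oxoglutarate dehydrogenase complex.

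More than 1 promoter peak was found at *Mrpl2*, *Mrpl14*, *Mrpl33*, *Mrpl36* and *Mrpl48*. These are 7.2% of the 69 genes with a promoter peak, near the 5.8% of all such protein-coding genes. At *Mrpl14* a peak of 2450 bp shared with *Tmem63b* lay at the principal TSS, and a second of 976 bp lay at a start farther into the gene (chr17:45694844-45695819). At *Mrpl33* a peak of 1418 bp lay at the outermost start (chr5:31596145-31597562) and one of 497 bp at an internal start (chr5:31614135-31614631), 444 bp downstream of the principal TSS by its midpoint and not covering it. The second *Mrpl2* peak, of 570 bp, was also a promoter peak of *Cul7*. Within 3 kb of a start, outside the promoter limit, *Mrpl50* had a further peak 2340.5 bp downstream and *Mrps5* one 2890 bp upstream.

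Motif letters were counted in the window from 250 bases before to 50 bases after the principal TSS, on both strands, as a description of the sequence and not of binding. ETS letters (CCGGAAG) were present at 29 of 78 genes (37.2%, 27.3 to 48.3%), against 11.1% of all protein-coding genes and 18.8% of CpG-rich ones. The share was 29.3% for cytosolic ribosomal protein genes and 17.4% for respiratory chain and ATP synthase genes. It was 37.9% for members with and 36.7% for members without a divergent partner. Of the 33 matches, 27 began within 50 bp of the TSS (81.8%, compared with 58.2% of all matches in the genome's promoters). *Mrpl43*, *Mrpl52*, *Mrpl58* and *Mrps34* had 2 matches each, and those of *Mrpl43* are the capitals in the *Twnk* spacer above.

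The YY1 letters AAGATGGCG were present at 8 genes (10.3%, 5.29 to 18.9%), against 1.77% of all and 3.21% of CpG-rich genes. These were *Mrpl36*, *Mrpl37*, *Mrpl42*, *Mrps10*, *Mrps11*, *Mrps18a*, *Mrps24* and *Mrps27*, all with a promoter peak. A promoter peak was present at 88.5% of the whole family and at 290 of the 389 protein-coding genes with these letters. At 6 of the 8 members the letters began 15 to 30 bases after the start, in the direction of the gene. Over all genes, 194 of 401 matches (48.4%) lay after the start in that direction. YY1 is a zinc finger factor that binds near the start of many housekeeping genes. These letters contain the start codon ATG, and whether a match was also the start of a reading frame was not tested.

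ZBTB33 letters (CTCGCGAG) occurred at *Mrpl40*, *Mrpl57* and *Mrps7* (3.85%, against 1.21% of all, 2.33% of CpG-rich and 9.76% of cytosolic ribosomal protein genes), all 3 with a divergent partner and a shared peak of 1840 to 2792 bp. The NRF1 core was present at *Mrpl9*, *Mrpl10*, *Mrpl17*, *Mrpl22* and *Mrpl32* (6.41%, against 2.69% of all and 4.33% of CpG-rich genes), of which *Mrpl17* and *Mrpl22* also had ETS letters. The counts behind both shares are small. SP1 letters (GGGCGG) were found at 46.2% of the genes, near the 44.7% of all genes and below the 70.8% of CpG-rich ones. The CREB letters TGACGTCA (2.56%, against 2.51%), the NFY letters CCAAT (34.6%, against 38.8%) and the TATA letters TATAAA (8.97%, against 12.6%) were near the share of all genes. The E-box CACGTG was present at 4 genes (5.13%, against 7.79% of all and 11.1% of CpG-rich genes), each with a divergent partner. The ZNF143 letters ACTACAATT were present at none, against 0.538% of all genes. Only these exact letters were searched, so their absence does not show that the family lacks other forms of the ZNF143 site. None of the ETS, NRF1, YY1, ZBTB33 and ZNF143 letters were present at 39 of the 78 genes (50%), against 84.02% of all and 73.35% of CpG-rich genes. With all 10 motifs counted, 13 of the 78 genes had none (16.7%). This was below the 22.4% of all genes but above the 9.80% of CpG-rich ones.

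**Figure D5:**
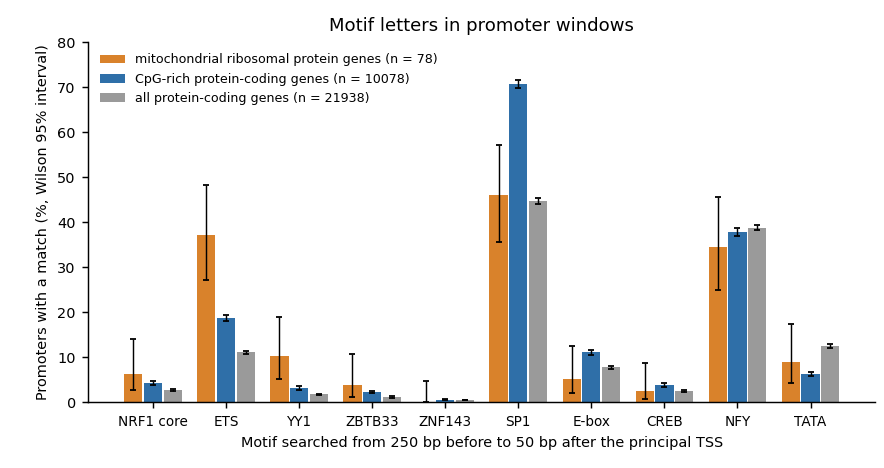
Share of promoters (%, bars with Wilson 95% intervals) whose window from 250 bp before to 50 bp after the principal TSS held the letters of each of 10 motifs on either strand, for 78 mitochondrial ribosomal protein genes, 10078 CpG-rich genes and all 21938 protein-coding genes. ETS letters stand at 37.2%, 18.8% and 11.1% in these groups, YY1 letters at 10.3%, 3.21% and 1.77%, and SP1 letters at 46.2%, 70.8% and 44.7%.

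Only 9 genes had no promoter peak, too few to show whether matches differ between genes with and without one. ETS letters were present at 5 of the 9 genes without a promoter peak (*Mrpl34*, *Mrpl53*, *Mrps12*, *Mrps18b* and *Mrps35*) and at 24 of the 69 with one. YY1 letters were present at 0 of these 9 and 8 of the 69, NRF1 letters at 0 of 9 and 5 of 69.

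Other genes of mitochondrial gene expression carried promoter peaks in similar proportions. The 5 mitochondrial ribosomal proteins with other names, *Dap3*, *Ptcd3*, *Aurkaip1*, *Chchd1* and *Gadd45gip1*, each had a promoter peak, of 1556 to 2010 bp. Of 24 genes for ribosome assembly and rRNA modification 23 had one, the exception being the GTPase gene *Noa1*. Of 15 translation factor genes 13 did, and *Guf1* and *Mtfmt*, the latter encoding the enzyme that formylates the initiator tRNA, did not. Of 22 genes for charging mitochondrial tRNAs 18 had a peak, all but *Aars2*, *Iars2*, *Nars2* and *Sars2*. Of 8 genes for replication and transcription of mitochondrial DNA 6 had one, and *Polrmt* and *Polg*, which encode the RNA and DNA polymerases of mitochondria, did not.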

How the data were processed

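H3K56ac ChIP-seq and input libraries came from Scramble and *Sirt6* KD V6.5 cells. The authors trimmed reads with Trim Galore, aligned them to mm10 with bowtie, keeping uniquely placed reads, dropped duplicate reads (Picard) and ran MACS2. They then discarded peaks in ENCODE blacklisted regions and reduced the rest to one consensus set (GenomicRanges). Regions whose sequence recurs elsewhere are therefore poorly covered. The deposited file holds start and end positions alone, its score is constant, and neighbouring peaks are at least 1000 bp apart. Positions are printed counted from 1. TSS were the 5′ ends of all transcripts of protein-coding genes in GENCODE M21, and sequence was read from GRCm38.p6. For a gene with several promoter peaks, the nearest to any TSS was used, and for positions from the principal TSS the nearest to that TSS.

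Genes named in the text were those without a promoter peak, the 5 widest, narrowest, nearest and farthest peaks, shared or multiple peaks, those at the 1 kb limit and listed non-members without a peak. Others were added as examples. Members and lists were chosen with earlier results of these data known. Scripts were checked on made-up genes and peaks with known distances. Python 3.11.15 with numpy 2.4.6, scipy 1.17.1, pysam 0.24.0 and matplotlib 3.10.9 was used.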

Additional observations from a re-analysis of the deposited data

How the results depend on the processing

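The share of genes with a promoter peak ranged from 80.8% (midpoint within 500 bp, against 25.8% of all genes) to 89.7% (within 3 kb, against 36.9%, or any base). Of 22 alternatives on 6 results, 18 stayed within the interval of the value as reported. The signed offset of the midpoint depended on the TSS set. Its median over the family was 84.5 bp from the nearest TSS, 305 bp from the outermost 5′ end and 305 bp from the principal TSS, and for genes without a divergent partner 249.5, 391 and 394.5 bp, because fewer starts are then offered. With a partner it was -5, 15 and 4.5 bp. The offsets split by partner, with 6 alternatives, were added after the data were seen. The share with a divergent partner was 29.5% with principal TSS only and 41.0% with partners of any annotated type, against 37.2%. As all peaks carry one score, peaks of at least 500 bp stood in for a stricter threshold (85.9%). No paired analysis was possible because a merged peak cannot be traced to a library. Replicates 1 and 2 of both groups could be neither paired nor left out in turn. Read depth at the starts without a peak is not used here.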
